A study of Mus musculus with 16 samples.

Results

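Bleomycin and interleukin-1 beta (IL-1β) were set directly against each other in cultured articular chondrocytes of the mouse, the cells that make joint cartilage. The comparison took the 4 bleomycin and the 4 IL-1β libraries, 8 of the 16 in the study, and every gene with an FPKM of at least 1 in at least 4 of these 8 libraries. FPKM, the unit of the deposited tables, is the number of fragments of a gene scaled to the gene's length and to the library's mapped fragments, so that levels of different genes can be set side by side. Of 55450 listed genes, 12556 passed this filter. The bleomycin cells first received hyaluronidase type I-S at 4 U/mL for 4 h without serum, 2 days after seeding. They then received bleomycin at 50 µg/mL for 24 h and spent 5 days in fresh medium. The IL-1β cells received the cytokine at 1 ng/mL for 24 h. All cells were primary cultures kept at 3% oxygen with 10% fetal bovine serum, and 4 vehicle libraries, from cells given an equal volume of phosphate-buffered saline for 24 h, are used for description only. The study used bleomycin to induce senescence and IL-1β as an inflammatory, acute stress control. The drug, the time of harvest and the hyaluronidase step differ together between the groups and cannot be told apart, and the labels name the hyaluronidase step for bleomycin alone. The labels give no strain, age or sex and do not say whether the replicates came from separate animals, so p-values measure the spread between these libraries, which may be technical. In such bulk samples fewer cells of a type and less RNA per cell cannot be told apart.

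Bleomycin is a glycopeptide that cuts DNA, and cells with lasting DNA damage can leave the cell cycle for good through the p53 and p21 pathway. Senescent cells are known for a secretory program of cytokines, chemokines and proteases. IL-1β binds its receptor IL1R1 and the co-receptor IL1RAP, recruits MYD88 and the IRAK kinases, and through TRAF6 and TAK1 frees NF-kB from its inhibitor IkB-alpha. In cartilage this cytokine is known to raise matrix-degrading enzymes and nitric oxide synthesis and to lower the genes of the matrix itself.

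Depth, estimated from the steps between low FPKM values, was 15980000 to 22280000 fragments over the 8 libraries, and 12266 to 12481 genes per library reached 1 FPKM, the level at which a gene of 1 kilobase holds 15.98 to 22.28 fragments. The 8 defining chondrocyte markers (Sox9, Col2a1, Hapln1, Col9a1, Col11a1, Acan, Matn3 and Comp) were above 1 FPKM in all 8 libraries. The FPKM of a library summed to 405159 to 418563 in bleomycin and 521294 to 559190 in IL-1β (exact permutation test, two-sided p = 0.0286, the smallest that 4 against 4 allows). In the IL-1β libraries Saa3 alone held 11.99% to 14.35% of that sum. Because the sums of the groups differed, rescaling each library to the same sum (TPM) moved the median log2 difference of all tested genes from 0.01 to 0.37. The median-of-ratios and quantile scalings left it at 0.00 and 0.02. Where the TPM rescaling turns the median of a described gene group, this is said beside it.

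Differences are given as bleomycin minus IL-1β on the log2(FPKM + 1) scale with their standard error, and a gene was called at a Benjamini-Hochberg adjusted p under 0.05 in limma's moderated test over all 12556 genes. By this rule 6423 genes (51.2%) differed, 3282 higher in bleomycin (26.1%) and 3141 higher in IL-1β (25.0%). At least 2-fold differences were found for 852 genes (6.79%), 420 higher in bleomycin (3.35%) and 432 higher in IL-1β (3.44%). This count takes differences of at least 1 in size on the log2(FPKM + 1) scale, not ratios of mean FPKM. It was 535 among genes with a mean FPKM of at least 5, 1335 with a pseudocount of 0.01 and 1513 after TPM rescaling. The libraries of the groups did not overlap for 5986 genes (47.7%). Of the calls, 51.1% were higher in bleomycin, a share that was 85.9% after TPM rescaling, 49.1% when libraries were scaled by the median of ratios and 52.8% after quantile normalization. The shares of all tested genes are the background against which the counts of each gene group below are read. Correlations of log2 values across genes, which are not independent replicates, were 0.985 to 0.989 within a group and 0.921 to 0.933 between the groups.

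**Figure D1:**
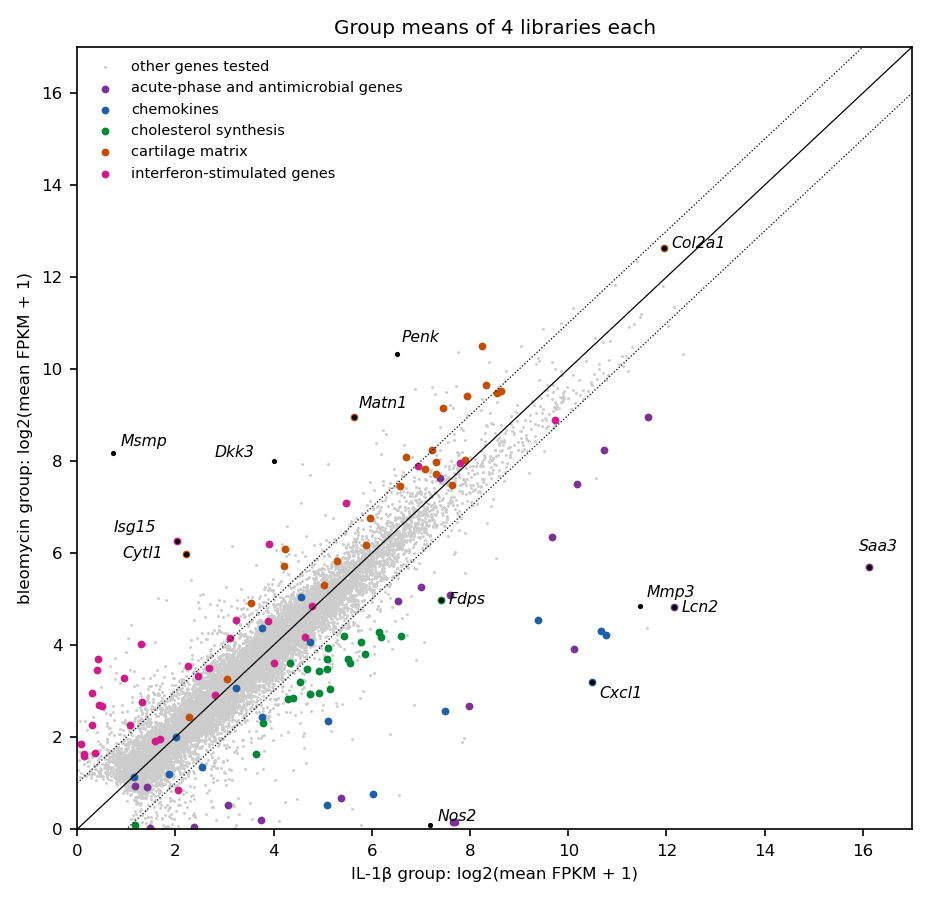
Mean level of each of the 12556 tested genes in the IL-1β libraries (horizontal axis) against the bleomycin libraries (vertical axis), both as log2(mean FPKM + 1) of 4 libraries. Colours mark 5 gene groups, the solid line marks equal levels and the dotted lines 2-fold differences; Saa3, Lcn2, Mmp3 and Cxcl1 lie far to the right of the line, and Msmp, Isg15, Dkk3 and Penk far above it.

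The widest differences went toward IL-1β. Saa3, an acute-phase serum amyloid gene, had the largest of all tested genes, and Msmp, which encodes a small secreted protein, the largest in the direction of bleomycin. Msmp (ENSMUSG00000078719.2, chromosome 4, 43583216 to 43584494, protein coding) stood at 250.4, 315, 261 and 331 FPKM in the bleomycin libraries and at 0.672, 0.298, 0.614 and 1.05 FPKM in the IL-1β libraries, with 8.08, 11.7, 8.90 and 4.98 FPKM in vehicle. Coordinates here are those of build GRCm38, GENCODE M21. Every bleomycin library lay above every vehicle library and every vehicle library above every IL-1β library. The difference was 7.46 ± 0.14 (limma, adjusted p = 2.51e-10). Penk, the precursor of the opioid peptide enkephalin, was 14.3-fold higher in bleomycin, at 1286 ± 65.5 against 89.8 ± 8.18 FPKM (mean ± SD, n = 4 libraries, as throughout). Dkk3, a secreted glycoprotein of the dickkopf family, stood at 254 ± 16.5 against 15.0 ± 1.20 FPKM, and Cd248, which encodes the stromal surface protein endosialin, at 31.4 ± 1.05 against 2.13 ± 0.573 FPKM. Slurp1, another small secreted protein, was at 20.8 ± 4.38 against 1.12 ± 0.446 FPKM. In the other direction, Chil1, which encodes a chitinase-like protein secreted by inflamed cartilage, stood at 3114 ± 316 FPKM in IL-1β and 19.8 ± 4.63 FPKM in bleomycin. Vehicle lay between the treatments for each of these 5 genes. Its levels were 267 ± 43.9 FPKM for Penk, 58.6 ± 2.38 FPKM for Dkk3, 9.96 ± 1.63 FPKM for Cd248 and 47.1 ± 13.9 FPKM for Chil1.

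The receptor genes of the IL-1 pathway differed by less than 2-fold on the log scale, and its inhibitors differed in both directions. Of 21 listed genes, 15 were tested, 6 of which were higher in IL-1β, 4 in bleomycin and 5 not called. After TPM rescaling 9 were higher in bleomycin and 4 in IL-1β, and the median turned from -0.0008 to 0.37, close to that of all tested genes there. Il1r1, the signalling receptor, stood at 26.6 ± 3.56 FPKM in IL-1β and 17.2 ± 1.97 FPKM in bleomycin (log2 difference -0.60 ± 0.11, limma, adjusted p = 0.00116), and this call ended after TPM rescaling. Il1rap, its co-receptor, was at 7.49 ± 1.05 against 4.39 ± 0.385 FPKM. Il1rl1, the receptor of the related cytokine IL-33, was at 44.3 ± 8.26 FPKM in IL-1β, 24.1 ± 4.17 FPKM in bleomycin and 81.1 ± 13.1 FPKM in vehicle. Irak3, a kinase-dead inhibitor of the pathway, had the largest difference of the list: the IL-1β libraries read 21.5, 24.2, 24.3 and 22.2 FPKM and the bleomycin libraries 3.03, 2.40, 3.69 and 3.16 FPKM. These groups did not overlap (log2 difference -2.57 ± 0.10, limma, adjusted p = 4.67e-08). Il1rn, the secreted receptor antagonist, went the other way, at 14.0, 10.4, 9.96 and 12.7 FPKM in bleomycin and 4.21, 3.03, 6.99 and 3.63 FPKM in IL-1β, again without overlap (1.26 ± 0.20, limma, adjusted p = 5.40e-04), while vehicle stood at 16.9 ± 9.55 FPKM. The kinase genes Irak1, Irak4 and Map3k7 (TAK1) and the adaptor genes Traf6 and Tollip were not called, with log2 differences of -0.0008, 0.10, -0.08, 0.11 and 0.04, though all 5 passed as higher in bleomycin after TPM rescaling. The remaining bleomycin-higher calls, Tab1, Tab2 and Il18, rested on small differences (0.21, 0.19 and 0.32): of the 4, only 2 passed without bleomycin replicate 1, 2 or 4 or without IL-1β replicate 1 or 3. The genes of the cytokines themselves were nearly silent: Il1b was listed at 0 in all 8 libraries, and Il1a reached at most 0.0910 FPKM.

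NF-kB subunits and the feedback inhibitors they switch on were mostly higher in IL-1β. Of 27 tested genes, 18 were higher in IL-1β (67%), 2 in bleomycin and 7 not called, with a median log2 difference of -0.68 against 0.01 over all tested genes. One of them, Tnip3, passed the filter through the IL-1β libraries alone, and a pseudocount of 0.01 gave a median of -1.03. Nfkbia (ENSMUSG00000021025.8, chromosome 12, 55489410 to 55492647, protein coding), which encodes IkB-alpha, stood at 86.8, 79.4, 87.6 and 84.3 FPKM in IL-1β and 14.8, 16.3, 11.7 and 13.4 FPKM in bleomycin, where vehicle stood at 15.9, 13.1, 16.4 and 19.5 FPKM. The bleomycin libraries overlapped with vehicle and lay far below every IL-1β library (-2.51 ± 0.09, limma, adjusted p = 2.72e-08). Zc3h12a, whose product degrades inflammatory mRNAs, was 16.2-fold higher in IL-1β, at 47.0 ± 1.85 against 2.91 ± 0.395 FPKM, and Nfkbiz, a nuclear IkB protein, 6.81-fold higher. Tnfaip3 (A20) stood at 5.60 ± 0.354 against 2.08 ± 0.148 FPKM and Bcl3 at 35.1 ± 5.32 against 11.6 ± 0.838 FPKM. Among the transcription factors, Nfkb1 was at 50.7 ± 6.10 against 20.6 ± 1.61 FPKM and Relb at 14.9 ± 1.74 against 7.27 ± 0.644 FPKM, whereas Rela, at 24.4 ± 2.17 and 24.8 ± 2.61 FPKM, and Rel were not called. The kinase genes Ikbkb and Chuk were not called either (0.03 and 0.05). After TPM rescaling Rela, Ikbkb and Chuk passed as higher in bleomycin. Map3k14, the kinase of the non-canonical branch, was higher in bleomycin (0.36 ± 0.08, limma, adjusted p = 0.00425).

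Chemokines, which draw leukocytes into tissue, showed some of the widest gaps. Of 33 listed genes, 17 were tested, with 12 higher in IL-1β, 2 in bleomycin and 3 not called (median -1.32). Of the 12, 2 passed the filter through the IL-1β libraries alone, and the other 15 tested genes had a median of -1.19. This median was -0.17 without the filter, which adds genes near 0, and -4.57 among genes with a mean FPKM of at least 5. Cxcl1 (ENSMUSG00000029380.11, chromosome 5, 90891241 to 90893115, protein coding), which attracts neutrophils, stood at 1392, 1462, 1381 and 1517 FPKM in the IL-1β libraries. The bleomycin libraries read 8.40, 9.89, 6.18 and 8.44 FPKM and the vehicle libraries 42.3, 24.3, 31.8 and 55.5 FPKM. So bleomycin lay below vehicle and IL-1β far above it, with no overlap between any of the groups (-7.30 ± 0.11, limma, adjusted p = 1.15e-10). Cxcl5, also a neutrophil attractant, was at 1745 ± 80.1 against 17.7 ± 3.72 FPKM, with 82.3 ± 40.6 FPKM in vehicle. Ccl2, which attracts monocytes, was at 1615 ± 94.9 against 18.7 ± 3.06 FPKM, with 49.2 ± 13.0 FPKM in vehicle. Cxcl14 was one of the 2 chemokine genes higher in bleomycin, at 19.6 ± 0.589 against 12.6 ± 1.23 FPKM.

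Cytokines and colony-stimulating factors split. Of 27 listed genes, 17 were tested, and 8 were higher in IL-1β, 5 in bleomycin and 4 not called, or 7 and 8 after TPM rescaling. Il6, a chief cytokine of the senescence secretory program, read 47.6, 44.1, 51.2 and 46.2 FPKM in IL-1β, 0.189, 0.558, 0.330 and 0.377 FPKM in bleomycin and 1.88, 1.38, 1.61 and 3.43 FPKM in vehicle. No bleomycin library reached 1 FPKM (log2 difference -5.15 ± 0.09). Under the filter Il6 therefore had to be higher in IL-1β, without overlap. Csf3, which encodes the granulocyte growth factor G-CSF, was under 1 FPKM in every bleomycin library and at 3.16 ± 1.03 FPKM in IL-1β. It passed the filter through IL-1β alone, as did Il6 and 1 more of the 8. Of the other 14 tested genes, 5 were higher in IL-1β, 5 in bleomycin and 4 not called.

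**Figure D2:**
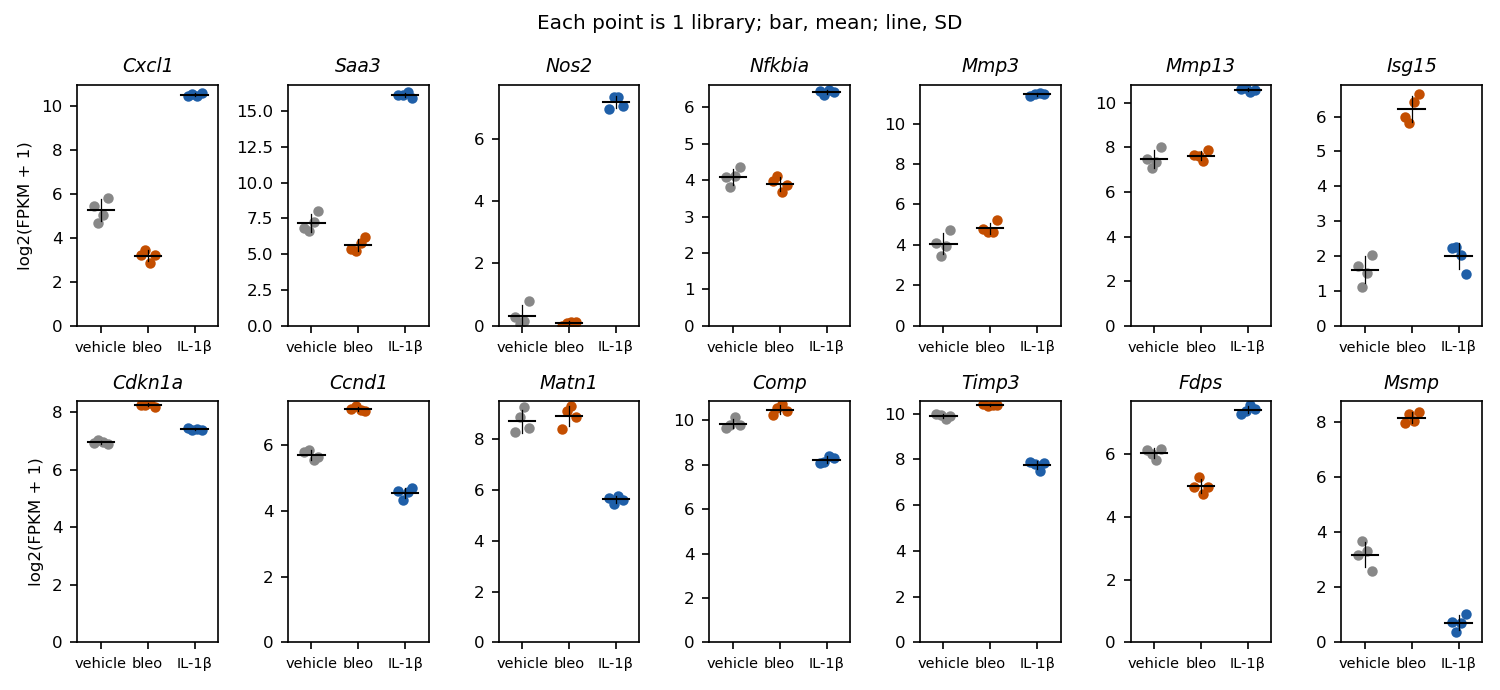
Level of 14 genes in each library of the vehicle (grey), bleomycin (orange) and IL-1β (blue) groups, as log2(FPKM + 1); each point is 1 library, the bar is the mean and the line the SD of 4 libraries. Cxcl1, Saa3, Nos2, Nfkbia, Mmp3 and Mmp13 are highest in IL-1β, Isg15, Cdkn1a, Ccnd1, Comp, Timp3 and Msmp are highest in bleomycin, Matn1 is lowest in IL-1β, and Fdps is highest in IL-1β and lowest in bleomycin.

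Acute-phase and antimicrobial genes had the largest median difference among the described lists. Of 23 listed, 21 were tested, with 19 higher in IL-1β, 1 in bleomycin and 1 not called (median -2.65). Of the 19, 7 passed the filter through the IL-1β libraries alone, and the other 14 tested genes had 12 higher in IL-1β and a median of -2.57. With a pseudocount of 0.01 the median of all 21 was -4.16. Saa3 (ENSMUSG00000040026.8, chromosome 7, 46711998 to 46715700, protein coding) stood at 69449.7, 71601, 80249 and 62509 FPKM in IL-1β, 41.2, 35.7, 54.1 and 71.4 FPKM in bleomycin and 115, 96.8, 155 and 256 FPKM in vehicle. All IL-1β libraries stood far above every other library, and the bleomycin libraries below every vehicle library (-10.47 ± 0.19, limma, adjusted p = 1.86e-10). Saa1 and Saa2 stood at 200.2 ± 36.6 and 205 ± 34.0 FPKM in IL-1β and at 0.112 ± 0.0622 and 0.120 ± 0.0901 FPKM in bleomycin. Both passed the filter through IL-1β alone and had to be higher there. They are near-identical copies between which reads can be split, so their separate values are uncertain. Lcn2, which encodes the iron-trapping protein lipocalin 2, was 167-fold higher in IL-1β, at 4542 ± 796 against 27.2 ± 3.89 FPKM. Serpina3n, a serine protease inhibitor, was the member higher in bleomycin, at 199 ± 10.1 against 167 ± 13.7 FPKM.

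The 250 bases before the annotated start of the 3 serum amyloid genes are shown because these genes had the largest differences in the direction of IL-1β. They are RefSeq sequences of build GRCm38.p6, 5′ to 3′ on the gene's strand, at chr7:46715677-46715926 (Saa3, minus strand), chr7:46751583-46751832 (Saa2, plus strand) and chr7:46742981-46743230 (Saa1, minus strand). Both strands were searched for a form of the NF-kB motif, GGGA and TTCC with any 2 bases between them, and a form of the interferon response motif, GAAA and GAAA with any 2 bases between them. Capitals mark matches.
Saa3: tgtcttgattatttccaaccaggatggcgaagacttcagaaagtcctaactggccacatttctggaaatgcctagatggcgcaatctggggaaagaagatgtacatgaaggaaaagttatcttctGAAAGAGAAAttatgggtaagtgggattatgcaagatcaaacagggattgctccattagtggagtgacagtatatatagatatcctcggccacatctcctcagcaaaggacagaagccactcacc
Saa2: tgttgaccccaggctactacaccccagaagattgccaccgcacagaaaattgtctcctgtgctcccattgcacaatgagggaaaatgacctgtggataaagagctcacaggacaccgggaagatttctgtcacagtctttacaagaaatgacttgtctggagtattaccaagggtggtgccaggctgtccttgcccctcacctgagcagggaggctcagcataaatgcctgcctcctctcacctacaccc
Saa1: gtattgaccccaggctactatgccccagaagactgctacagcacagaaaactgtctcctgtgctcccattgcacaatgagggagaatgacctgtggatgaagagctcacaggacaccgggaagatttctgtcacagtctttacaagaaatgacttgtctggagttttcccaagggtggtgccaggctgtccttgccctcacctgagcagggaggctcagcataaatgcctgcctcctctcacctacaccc
Saa1 and Saa2 matched at 238 of 251 alignment columns (94.8%). None of the 3 held the NF-kB form, and Saa3 held a single match to the interferon form, 116 to 125 bases before the start. The NF-kB form was found in 4 of 12 tested chemokine genes with an entry (33.3%), 3 of 22 NF-kB genes (13.6%), 3 of 25 interferon-stimulated genes (12%), 0 of 17 acute-phase genes, 0 of 16 cholesterol synthesis genes and 0 of 20 cartilage matrix genes. It was in 1.47% of the 9436 tested genes with an entry and in 1.36% of all 27025 genes of the table. These matches describe letters in a short window and show neither binding nor its absence.

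Genes of nitric oxide and prostaglandin synthesis, both mediators of joint inflammation, were mostly higher in IL-1β. Of 21 listed, 15 were tested, 12 higher in IL-1β and 3 in bleomycin (median -0.77). Of these, 3 passed the filter through IL-1β alone and 1 through bleomycin alone, and 9 of the other 11 were higher in IL-1β. Nos2 (ENSMUSG00000020826.9, chromosome 11, 78920787 to 78960254, protein coding), the inducible nitric oxide synthase, read 122, 162, 159 and 133 FPKM in IL-1β. All bleomycin libraries lay at or under 0.0907 FPKM and all vehicle libraries under 1 FPKM (log2 difference -7.08 ± 0.10). Nos2 thus passed the filter through IL-1β alone and had to be higher there. Gch1, which makes the synthase's cofactor, was 6.16-fold higher in IL-1β. Arg2, an arginase that shares the synthase's substrate, stood at 16.2 ± 2.24 against 0.131 ± 0.0928 FPKM. Like Nos2, it passed the filter through IL-1β alone. Ptgs2 (COX-2) was at 21.0, 24.4, 14.8 and 15.6 FPKM in IL-1β and 5.43, 5.69, 6.08 and 6.83 FPKM in bleomycin, without overlap (-1.49 ± 0.15, limma, adjusted p = 2.77e-05). Hpgd, which breaks prostaglandins down, was 5.89-fold higher in bleomycin, at 7.80 ± 1.89 against 1.32 ± 0.2997 FPKM.

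Complement genes were divided, with 8 of 15 tested higher in IL-1β, 4 in bleomycin (1 of which passed the filter through bleomycin alone) and 3 not called. C3, the central component, was 21.1-fold higher in IL-1β (116 ± 9.47 against 5.47 ± 0.732 FPKM), Cfb of the alternative pathway 10.1-fold and the protease gene C1s1 4.25-fold. Masp1, a protease of the lectin pathway, was 3.33-fold higher in bleomycin, at 60.3 ± 3.28 against 18.1 ± 1.09 FPKM, and Cd55, which restrains complement on the cell surface, 3.03-fold.

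NRF2 and glutathione genes, which serve antioxidant defence, were mostly higher in IL-1β. Of 24 tested genes, 22 were higher in IL-1β, 1 in bleomycin and 1 not called (median -0.80), and after TPM rescaling 20 were higher in IL-1β and 2 in bleomycin. Gsr, glutathione reductase, stood at 28.5, 29.6, 25.7 and 20.9 FPKM in IL-1β and 7.37, 7.36, 8.56 and 8.03 FPKM in bleomycin, Nqo1, a quinone reductase, at 58.5 ± 5.13 against 23.5 ± 2.18 FPKM, and Gsta4, a glutathione transferase, at 29.4 ± 3.67 against 9.76 ± 0.588 FPKM. The groups did not overlap for any of these 3 genes. Among 11 antioxidant enzymes, 7 were higher in IL-1β, 1 in bleomycin and 3 not called (median -0.19), but this direction turned after TPM rescaling, with 3 higher in IL-1β, 6 in bleomycin and a median of 0.19. Sod2, the mitochondrial superoxide dismutase, stood at 146, 117, 138 and 126 FPKM in IL-1β and 17.3, 17.4, 14.2 and 13.8 FPKM in bleomycin (-2.99 ± 0.10, limma, adjusted p = 1.39e-08). Gpx8 went the other way (278 ± 14.7 against 216 ± 13.9 FPKM).

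Matrix metalloproteinases, which cut collagen and proteoglycan, fell into separate sets by treatment. All 12 tested members of 18 were called, 5 higher in IL-1β and 7 in bleomycin. The former included the stromelysin genes Mmp3 and Mmp10 and the collagenase gene Mmp13. Mmp3 (ENSMUSG00000043613.8, chromosome 9, 7445822 to 7455975, protein coding), stromelysin 1, stood at 2599, 2830.0, 2914 and 2855 FPKM in IL-1β, 26.3, 24.3, 24.3 and 36.5 FPKM in bleomycin and 16.2, 9.88, 14.6 and 25.5 FPKM in vehicle. The IL-1β libraries lay 101-fold above the bleomycin libraries on average (-6.62 ± 0.12, limma, adjusted p = 1.86e-10). Mmp13, the collagenase that cuts type II collagen, read 1537, 1581, 1432 and 1523 FPKM in IL-1β and 198, 193, 164 and 231 FPKM in bleomycin, the latter within the range of vehicle (175, 135, 159 and 257 FPKM). Mmp9, Mmp10 and Mmp12 were at 3.02 ± 0.201, 4.21 ± 0.357 and 2.56 ± 0.406 FPKM in IL-1β and under 1 FPKM in every bleomycin library. They passed through IL-1β alone and had to be higher there. Of the other 9 tested genes, 7 were higher in bleomycin and 2 in IL-1β. Higher in bleomycin were the gelatinase gene Mmp2 (115 ± 9.87 against 81.9 ± 7.09 FPKM), the membrane-bound Mmp14 (152 ± 2.57 against 94.9 ± 7.52 FPKM) and, with the largest difference, Mmp23 (57.5, 54.2, 51.4 and 56.9 against 15.0, 16.7, 17.8 and 17.7 FPKM). Mmp11, Mmp16, Mmp19 and Mmp28 followed with differences of 1.04, 0.96, 1.29 and 0.62. Mmp7 was listed at 0 in all 8 libraries, and Mmp8, Mmp15, Mmp17, Mmp24 and Mmp25 did not pass the filter.

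The aggrecanases Adamts4 and Adamts5, which cut aggrecan, did not separate the treatments. Adamts5 stood at 13.5, 13.9, 13.7 and 16.3 FPKM in bleomycin and 16.04, 17.2, 14.9 and 17.1 FPKM in IL-1β, and Adamts4 at 2.65, 2.04, 2.53 and 3.06 and 1.93, 2.07, 1.55 and 2.46 FPKM. These libraries overlapped and neither gene was called (limma, adjusted p = 0.0883 and 0.113). Adamts5 passed, higher in IL-1β, without bleomycin replicate 4 or without IL-1β replicate 3, and Adamts4 passed, higher in bleomycin, after TPM rescaling. Of 9 tested ADAMTS genes of 19, 2 were higher in IL-1β, of which Adamts1 turned to 0.12 after TPM rescaling, and 4 in bleomycin. Adamts7, whose enzyme cuts the matrix protein COMP, stood at 4.45, 6.47, 4.99 and 5.13 FPKM in IL-1β and 0.386, 0.951, 0.556 and 1.03 FPKM in bleomycin, without overlap (-1.86 ± 0.15, limma, adjusted p = 5.70e-06). Adamts2, which trims procollagen, was 2.43-fold higher in bleomycin. The other 10 members stayed under the filter.

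The TIMP and plasminogen list mixes protease inhibitors with proteases such as the plasminogen activators. Of its 12 tested genes, 7 were higher in bleomycin, 3 in IL-1β and 2 not called (median 0.96); the 3 became 1 without bleomycin replicate 3, and without the filter the median was 0.48. Timp3 (ENSMUSG00000020044.13, chromosome 10, 86300372 to 86349506, protein coding), the matrix-bound inhibitor of metalloproteinases and aggrecanases, stood at 1359, 1296, 1347 and 1321 FPKM in bleomycin, 235, 220.1, 177 and 228 FPKM in IL-1β and 1006, 986, 882 and 967 FPKM in vehicle. IL-1β lay lowest and bleomycin highest, without overlap (2.63 ± 0.09, limma, adjusted p = 1.39e-08). Timp2 read 754, 719, 720.0 and 702 FPKM in bleomycin and 184, 171, 184 and 186 FPKM in IL-1β, a 3.99-fold gap, while vehicle stood at 214 ± 5.55 FPKM. Timp1, at 1000.1 ± 26.8 and 922 ± 51.1 FPKM, was not called (limma, adjusted p = 0.116) but passed as higher in bleomycin after TPM rescaling and after quantile normalization, and vehicle stood at 649.7 ± 20.7 FPKM. Plat, tissue plasminogen activator, was 4.54-fold higher in bleomycin, and Serpinb2, an inhibitor of plasminogen activators, was higher in IL-1β (-1.07 ± 0.13, limma, adjusted p = 8.98e-05).

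**Figure D3:**
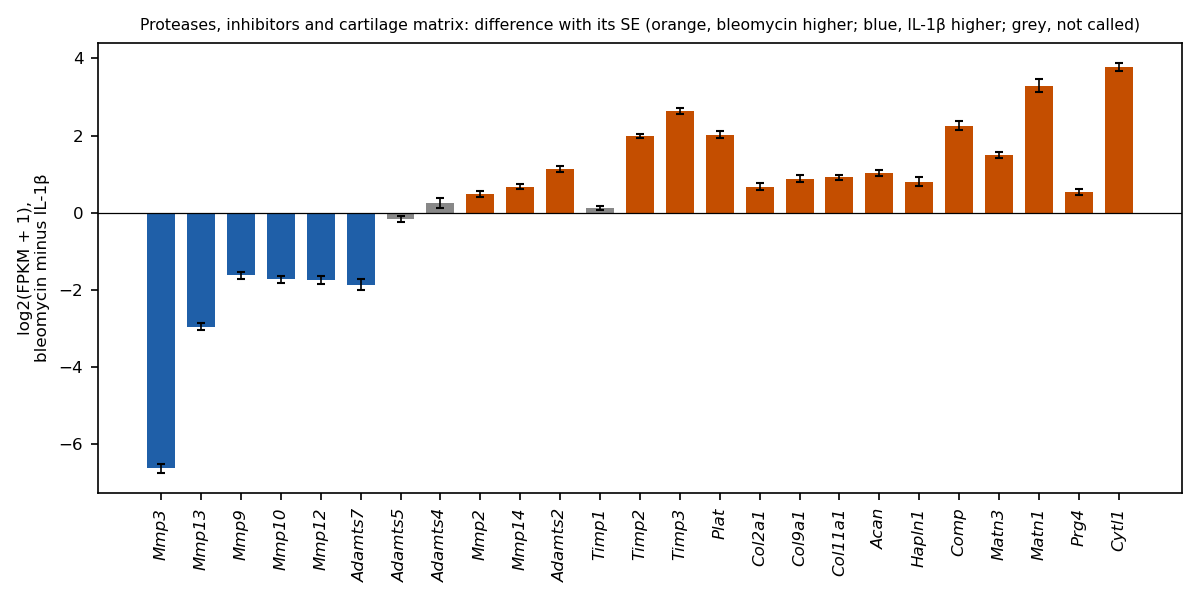
Log2 difference, bleomycin minus IL-1β, of proteases, their inhibitors and cartilage matrix genes, with the standard error of limma's fit to 4 libraries per group; bars above 0 are higher in bleomycin and grey bars were not called. Mmp3 and Mmp13 stand lowest, and Timp2, Timp3, Comp, Matn1 and Cytl1 lie on the bleomycin side.

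Cartilage matrix genes were higher in bleomycin almost throughout. Of 28 listed, 26 were tested, with 22 higher in bleomycin (85%), 0 in IL-1β and 4 not called (median 0.88, against 0.01 over all tested genes). All 8 defining chondrocyte markers were among the genes called higher in bleomycin. Without bleomycin replicate 4 or without IL-1β replicate 3, 1 gene, Epyc, passed as higher in IL-1β, and after TPM rescaling it turned to higher in bleomycin. Col2a1 (ENSMUSG00000022483.17, chromosome 15, 97975602 to 98004695, protein coding), the main cartilage collagen, read 5599, 6459.7, 7294 and 6071 FPKM in bleomycin, 3893, 3914, 4191 and 3889 FPKM in IL-1β and 8163, 9054, 10625 and 8040.5 FPKM in vehicle. Every bleomycin library lay above every IL-1β library, and every vehicle library above both groups (0.67 ± 0.09, limma, adjusted p = 1.61e-04). Acan (ENSMUSG00000030607.7, chromosome 7, 79053483 to 79115099, protein coding), the large aggregating proteoglycan, read 273, 302, 344 and 294 FPKM in bleomycin, 154, 154, 146 and 137 FPKM in IL-1β and 559.6, 627, 722 and 570.1 FPKM in vehicle, 3 levels without overlap (1.03 ± 0.08, limma, adjusted p = 3.38e-06). Both treatments thus stood below vehicle for these 2 genes, IL-1β the lower.

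Matn1, the matrilin of hyaline cartilage, showed a wider gap, with 337, 546, 629 and 465 FPKM in bleomycin and 50.9, 42.3, 53.5 and 48.0 FPKM in IL-1β. Vehicle, at 307, 466, 617 and 341 FPKM, overlapped with bleomycin and not with IL-1β (3.29 ± 0.17, limma, adjusted p = 3.01e-07). Comp, the pentameric matrix protein COMP, read 1202, 1509, 1711 and 1378 FPKM in bleomycin and 273, 278, 339 and 318 FPKM in IL-1β, with 934 ± 143 FPKM in vehicle. Cytl1, a small secreted chondrocyte protein, had the largest difference of the list (65.5, 67.9, 59.6 and 56.7 against 3.29, 4.78, 3.28 and 3.33 FPKM, 3.77 ± 0.11, limma, adjusted p = 6.26e-09). Other collagens of the cartilage fibril differed less: Col9a1 by 0.88, Col11a1 by 0.92 and Col11a2 by 0.66, while Col9a3 was not called (0.10) and passed as higher in bleomycin after TPM rescaling, as did Chad. Col27a1, a fibrillar collagen of growing cartilage, was 3.82-fold higher in bleomycin, and the link protein gene Hapln1 1.76-fold. Of the leucine-rich proteoglycans, Fmod was 2.78-fold and Prelp 2.66-fold higher in bleomycin, whereas Chad was not called (0.13). Prg4, the lubricant lubricin, stood at 55.6 ± 4.03 against 38.1 ± 4.00 FPKM, both above vehicle at 21.1 ± 2.52 FPKM. Cilp and Cilp2 did not pass the filter.

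Among chondrocyte transcription factors, 7 of 14 tested were higher in bleomycin, 0 in IL-1β and 7 not called (median 0.33). Sox9, which drives Col2a1 and Acan, stood at 43.7, 41.7, 46.1 and 45.9 FPKM in bleomycin and 33.4, 33.3, 30.6 and 27.3 FPKM in IL-1β, without overlap (0.50 ± 0.07, limma, adjusted p = 3.46e-04), and vehicle at 57.3 ± 1.62 FPKM. Erg, a factor of articular chondrocytes, was 2.57-fold higher in bleomycin, and Wwp2, a ubiquitin ligase gene that hosts miR-140, 1.86-fold. Hypertrophy and mineralization genes showed no common side: 5 of 16 tested were higher in bleomycin and 4 in IL-1β, and after TPM rescaling 8 and 3, when the median turned from -0.03 to 0.35. Ank, a pyrophosphate exporter, was 2.41-fold higher in bleomycin. Bglap2, an osteocalcin gene, stood at 11.4 ± 0.829 FPKM in IL-1β, 5.23 ± 1.20 FPKM in bleomycin and 0.369 ± 0.264 FPKM in vehicle. Its near-identical copy Bglap makes the split of reads between them uncertain.

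Matrix genes of fibroblast type were also higher in bleomycin, 23 of 29 tested, with 5 higher in IL-1β and 1 not called (median 0.67). Col3a1, a collagen of soft connective tissue, read 704, 689, 715 and 689 FPKM in bleomycin, 142, 139.7, 170.2 and 164 FPKM in IL-1β and 452, 426, 487 and 468 FPKM in vehicle. Ogn, osteoglycin, was 7.21-fold higher in bleomycin, at 243 ± 75.2 against 33.7 ± 5.62 FPKM. Col5a3 was the widest exception, at 22.5 ± 1.77 FPKM in IL-1β and 4.81 ± 0.190 FPKM in bleomycin. Of 24 genes of the TGF-beta pathway, which builds matrix, 12 were higher in bleomycin, 3 in IL-1β and 9 not called (median 0.41, and 0.14 among genes with a mean FPKM of at least 5). Tgfbr2, the type II receptor, read 63.1, 58.6, 64.1 and 60.3 FPKM in bleomycin and 20.5, 19.6, 19.0 and 23.02 FPKM in IL-1β, and the ligand gene Tgfb2 was 2.92-fold higher in bleomycin. Ccn2, a target and matricellular protein, stood at 566 ± 26.4 FPKM in bleomycin, 199.6 ± 13.2 FPKM in IL-1β and 659 ± 3.02 FPKM in vehicle, while Ltbp2, a latent TGF-beta binding protein family gene, was 1.97-fold higher in IL-1β. The IGF axis, a growth signal of cartilage, had 9 of 16 tested genes higher in bleomycin and 3 in IL-1β. Igfbp5 was 10.7-fold higher in bleomycin (268, 229, 237 and 247 against 21.1, 21.2, 24.5 and 25.0 FPKM) with vehicle at 216 ± 19.3 FPKM, and the growth factor gene Igf2 2.34-fold. Integrin and adhesion genes ran the same way in 9 of 17 (53%, against 26.1% of all tested genes), with 2 higher in IL-1β. With 1 library left out, 7 to 8 were higher in bleomycin and 2 to 3 in IL-1β. Itga10, a collagen II receptor of chondrocytes, was 2.74-fold higher in bleomycin. The smooth muscle list had 6 of 11 tested members higher in bleomycin and 1, Tpm1, in IL-1β, a direction that turned after TPM rescaling; the calponin gene Cnn1 was at 5.19 ± 0.374 against 2.19 ± 0.521 FPKM.

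**Figure D4:**
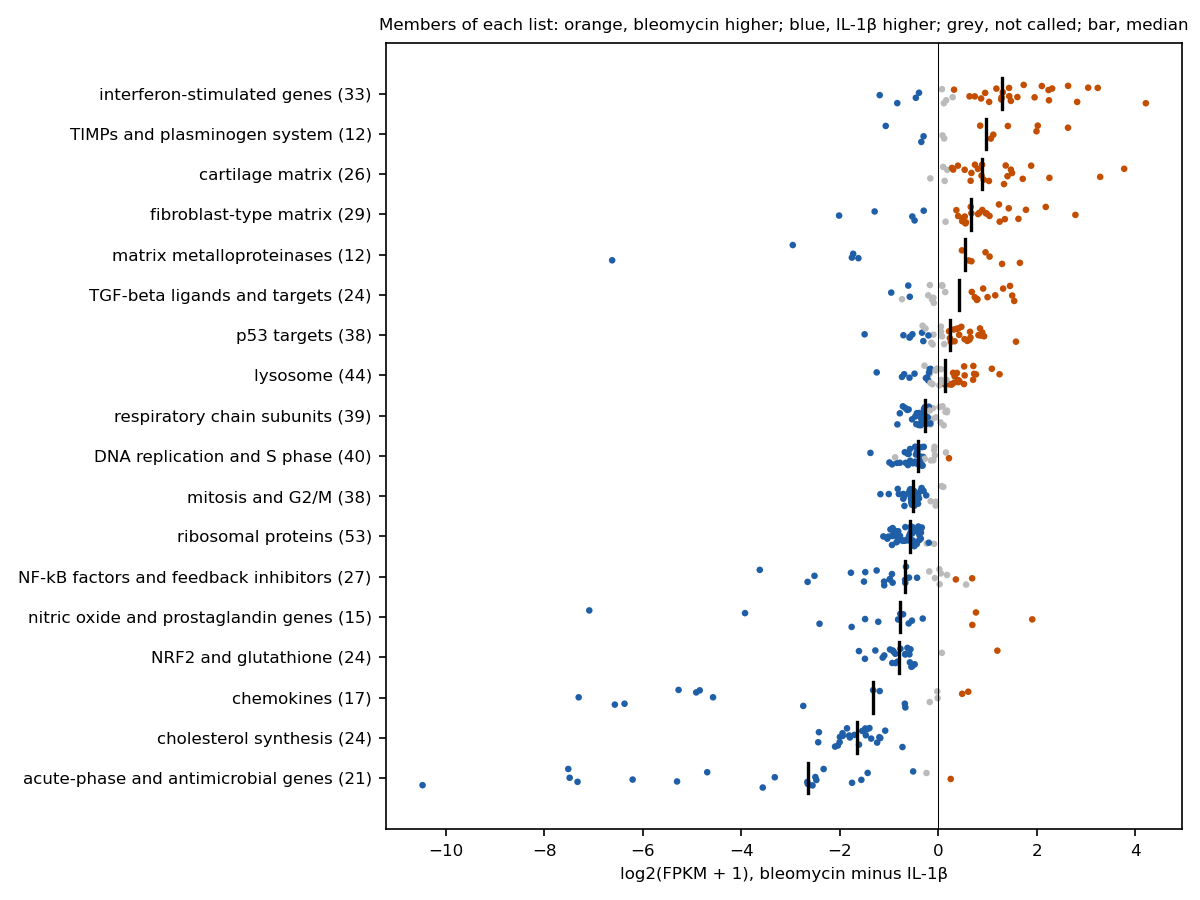
Log2 difference of each tested member of 18 gene lists, bleomycin minus IL-1β; each point is 1 gene, orange higher in bleomycin, blue higher in IL-1β, grey not called, with the list's median as a bar. Interferon-stimulated and matrix lists lie to the right and acute-phase, cholesterol and chemokine lists to the left; after TPM rescaling the median of the respiratory chain list turned to the right of 0.

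Targets of p53, the factor that answers DNA damage, were called higher in bleomycin in a larger share than all tested genes. Of 38 tested, 21 were higher in bleomycin (55%, against 26.1% of all tested genes) and 8 in IL-1β (21%, against 25.0%). The other 9 were not called, and the median difference was 0.24. After TPM rescaling 25 were higher in bleomycin and 4 in IL-1β, with a median of 0.26 relative to all tested genes. One of the 21 passed the filter through the bleomycin libraries alone and had to be higher there, and of the other 37 genes 20 were higher in bleomycin. Cdkn1a (ENSMUSG00000023067.14, chromosome 17, 29090976 to 29100727, protein coding), which encodes the cell-cycle inhibitor p21, read 302, 301, 316 and 288 FPKM in bleomycin, 175, 164, 167 and 164 FPKM in IL-1β and 119, 128, 123 and 118 FPKM in vehicle. The 3 groups did not overlap, and IL-1β lay between the others (0.85 ± 0.05, limma, adjusted p = 7.16e-07). Mdm2, the ubiquitin ligase that limits p53, stood at 61.2, 68.2, 60.9 and 68.5 FPKM in bleomycin and 59.4, 54.6, 43.2 and 48.8 FPKM in IL-1β, again both above vehicle (38.9 ± 2.22 FPKM; 0.33 ± 0.10, limma, adjusted p = 0.0161). Ephx1, an epoxide hydrolase, was 3.01-fold higher in bleomycin, and Perp, a membrane protein of the pathway, 1.98-fold. Gdf15, a stress cytokine, was at 10.0 ± 1.52 against 6.06 ± 0.610 FPKM. Fas, the death receptor, went the other way, at 64.5 ± 7.04 FPKM in IL-1β, 22.1 ± 1.25 FPKM in bleomycin and 15.4 ± 1.09 FPKM in vehicle. Trp53 itself stood at 38.1 ± 0.782 FPKM in bleomycin and 60.4 ± 1.84 FPKM in IL-1β (-0.65 ± 0.05, limma, adjusted p = 3.34e-06).

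The inhibitors of cyclin-dependent kinases did not all stand higher in bleomycin. Of 17 tested genes of the list with D cyclins and the RB family, 8 were higher in bleomycin, 2 in IL-1β and 7 not called. Cdkn2a, the locus of p16 and p19ARF, which gene-level values cannot separate, read 12.1, 14.2, 12.5 and 12.8 FPKM in bleomycin and 8.99, 10.4, 9.68 and 9.42 FPKM in IL-1β (0.38 ± 0.07, limma, adjusted p = 0.0016), with vehicle at 6.13 ± 0.527 FPKM. Cdkn2b, which encodes p15, was higher in IL-1β, at 39.3, 39.8, 45.8 and 42.4 against 34.9, 36.5, 35.2 and 32.0 FPKM (-0.26 ± 0.07, limma, adjusted p = 0.00837), but stood at 0.11 and was not called after TPM rescaling. Cdkn1b (p27), Cdkn2c (p18) and Cdkn2d (p19) were not called (0.05, -0.07 and -0.29), and Cdkn2c passed as higher in bleomycin after TPM rescaling (0.30). Cdkn1c (p57) was 2.02-fold higher in bleomycin, at the level of vehicle (206 ± 38.6 and 209 ± 66.2 FPKM). Ccnd1 (ENSMUSG00000070348.5, chromosome 7, 144929931 to 144939925, protein coding), cyclin D1, had the largest difference of the list, with 135, 146, 132 and 129.6 FPKM in bleomycin, 23.4, 19.3, 22.7 and 25.0 FPKM in IL-1β and 54.0, 56.6, 45.5 and 48.3 FPKM in vehicle, so vehicle lay between the treatments (2.54 ± 0.08, limma, adjusted p = 1.11e-08). Ccnd2 was 2.55-fold higher in bleomycin, and Cdk4, the partner of both, was 1.53-fold higher in IL-1β.

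Proliferation genes were higher in IL-1β. Of 40 replication genes, 31 were higher in IL-1β, 1 (Ccne1) in bleomycin and 8 not called (median -0.42), and of 38 tested mitosis genes 33 were higher in IL-1β, 0 in bleomycin and 5 not called (median -0.51). The Ccne1 call held with bleomycin replicate 4 or IL-1β replicate 3 left out and was lost with any of the other 6 libraries left out. After TPM rescaling 7 and 12 genes were called higher in IL-1β and 5 of each list higher in bleomycin, with medians of -0.06 and -0.17, or -0.43 and -0.54 relative to all tested genes. Mki67, the gene of the Ki-67 antigen, stood at 0.926, 2.57, 1.26 and 4.09 FPKM in bleomycin, 7.45, 6.04, 4.46 and 5.33 FPKM in IL-1β and 5.03, 6.63, 2.88 and 4.73 FPKM in vehicle (-1.18 ± 0.28, limma, adjusted p = 0.00639). Every bleomycin library lay below every IL-1β library, and both overlapped with vehicle. Tyms, thymidylate synthase, was 2.77-fold higher in IL-1β, Gins1 of the replicative helicase 2.30-fold, and Cenpa, the centromeric histone, 2.05-fold. The bleomycin libraries still held transcripts of this kind, with Cenpa at 21.0 ± 3.13 and Tyms at 8.51 ± 1.12 FPKM. DNA repair genes mostly did not differ past the test, 27 of 37, with 9 higher in IL-1β (6 without bleomycin replicate 2) and 1, Xrcc3, in bleomycin (2 genes without bleomycin replicate 3 or IL-1β replicate 4). None of the 9 kept a call in that direction after TPM rescaling, when 13 members passed as higher in bleomycin and the median turned from -0.15 to 0.18.

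Lamina and high-mobility-group genes, 21 tested, had 10 higher in IL-1β, 3 in bleomycin and 8 not called. The median of -0.13 became 0.18 after TPM rescaling, which is -0.18 relative to all tested genes. Lmnb1, lamin B1, whose loss is a known sign of senescence, read 8.75, 8.43, 8.21 and 7.65 FPKM in bleomycin, 13.8, 11.6, 12.3 and 13.2 FPKM in IL-1β and 24.4, 22.9, 19.5 and 24.0 FPKM in vehicle. Every bleomycin library was lower than every IL-1β library and both treatments were lower than vehicle (-0.57 ± 0.07, limma, adjusted p = 1.62e-04). Hmgb2, a chromatin protein, was 2.35-fold higher in IL-1β and Lbr, the lamin B receptor, 1.86-fold. BCL2 family and death receptor genes were divided, with 8 of 20 tested higher in bleomycin and 7 in IL-1β; the 8 became 5 without bleomycin replicate 1 or IL-1β replicate 2. After TPM rescaling 10 and 6 were called, and the median turned from -0.10 to 0.26. Bid, which links death receptors to mitochondria, was 4.34-fold higher in IL-1β, and Tnfrsf1b, a receptor of TNF, 2.55-fold. Pmaip1 (NOXA), at 2.39 ± 0.458 FPKM in bleomycin and under 1 FPKM in every IL-1β library, is the 1 of the 8 that passed the filter through bleomycin alone and had to be higher there, and without it 7 of 19 were higher in each direction.

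Interferon-stimulated genes, the effectors of antiviral defence, were higher in bleomycin. Of 40 listed, 33 were tested, with 25 higher in bleomycin, 4 in IL-1β and 4 not called (median 1.28). Of the 25, 10 passed the filter through the bleomycin libraries alone and had to differ, and of the other 23 tested genes 15 were higher in bleomycin, 4 in IL-1β and 4 not called (median 0.87). Isg15 (ENSMUSG00000035692.7, chromosome 4, 156199424 to 156200818, protein coding), a ubiquitin-like modifier, read 62.3, 55.5, 85.0 and 98.9 FPKM in bleomycin, 3.70, 3.84, 3.10 and 1.79 FPKM in IL-1β and 2.31, 1.17, 1.88 and 3.13 FPKM in vehicle. IL-1β overlapped with vehicle, and both lay far below bleomycin (4.21 ± 0.22, limma, adjusted p = 2.94e-07). Ifit1, which binds foreign RNA, stood at 10.6, 8.47, 11.1 and 17.8 FPKM in bleomycin and under 1 FPKM in every IL-1β library. Usp18, the protease that removes ISG15, likewise stood at 8.97, 7.91, 9.12 and 14.1 FPKM against values under 1 FPKM. The spread within bleomycin was wide for these genes, with SDs of 20.1 FPKM for Isg15 and 4.01 FPKM for Ifit1. Ifitm1 was the widest exception, at 3.13 ± 0.464 FPKM in IL-1β and 0.814 ± 0.225 FPKM in bleomycin.

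Of 14 tested IRF and STAT genes, a list of transcription factors that includes those of the interferon signal and SOCS feedback inhibitors, 6 were higher in bleomycin, 3 in IL-1β and 5 not called. After TPM rescaling 11 were higher in bleomycin and 0 in IL-1β. Irf7 was 6.16-fold higher in bleomycin (7.02, 5.78, 10.6 and 7.11 against 1.29, 1.57, 0.959 and 1.14 FPKM) and Irf9 2.96-fold. Socs3, a feedback inhibitor of IL-6 type signals, was higher in IL-1β (-0.57 ± 0.09, limma, adjusted p = 5.10e-04) and lost its call after TPM rescaling. Of 17 antigen presentation genes (MHC class I and immunoproteasome), 8 were higher in bleomycin and 5 in IL-1β (29%, against 25.0% of all tested genes). After TPM rescaling these counts were 10 and 1. H2-T23 stood at 27.0 ± 3.76 against 9.43 ± 1.62 FPKM and the peptide transporter gene Tap2 at 8.60 ± 1.04 against 3.34 ± 0.473 FPKM, though class I genes are similar enough for reads to be split between them. Nlrc5, a class I transactivator, was higher in IL-1β (2.95 ± 0.744 against 1.49 ± 0.567 FPKM) with overlapping libraries, and lost its call after TPM rescaling. Among the interferon-induced GTPases, 5 of 15 listed passed the filter, 2 of them through bleomycin alone, which had to be higher there. Of the other 3, 2 were higher in bleomycin and 1 in IL-1β. Irgm1, at 16.1, 13.3, 15.5 and 21.1 FPKM in bleomycin and 5.78, 4.53, 3.83 and 6.57 FPKM in IL-1β, Irgm2 and Igtp were higher in bleomycin, whereas Gbp2 was 2.48-fold higher in IL-1β.

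The stretches before the starts of Isg15 and Ifit1 are shown as those of the interferon genes with the largest differences, at chr4:156200819-156201068 (Isg15, minus strand) and chr19:34640639-34640888 (Ifit1, plus strand), from the same RefSeq table. Capitals mark the interferon form of the motif on either strand.
Isg15: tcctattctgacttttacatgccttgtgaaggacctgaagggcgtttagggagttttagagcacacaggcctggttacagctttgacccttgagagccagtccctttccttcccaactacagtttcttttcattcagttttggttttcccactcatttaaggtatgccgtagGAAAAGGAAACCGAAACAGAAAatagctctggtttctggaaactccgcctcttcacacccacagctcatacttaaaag
Ifit1: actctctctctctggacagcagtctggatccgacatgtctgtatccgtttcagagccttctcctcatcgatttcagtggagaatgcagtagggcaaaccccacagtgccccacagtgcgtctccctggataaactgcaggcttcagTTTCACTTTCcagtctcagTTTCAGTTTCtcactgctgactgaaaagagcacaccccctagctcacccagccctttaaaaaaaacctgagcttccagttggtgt
Isg15 held 3 overlapping matches, the most distal beginning 78 bases before the start, and Ifit1 held 2, at 95 to 104 and 76 to 85 bases before it. The motif was in 7 of 25 tested interferon-stimulated genes with an entry (28%), 2 of 12 chemokine genes (16.7%), 2 of 17 acute-phase genes (11.8%), 1 of 16 cholesterol synthesis genes (6.25%), 0 of 22 NF-kB genes and 0 of 20 cartilage matrix genes. It was in 3.02% of the tested genes with an entry and in 3.46% of all genes of the table.

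Cholesterol synthesis genes all stood higher in IL-1β. All 24 genes of the list were called, 23 of them at least 2-fold, and all 24 without overlap of the libraries, against 22.6% of all tested genes (median -1.66, and -1.42 after TPM rescaling). One of them passed the filter through IL-1β alone. Fdps (ENSMUSG00000059743.12, chromosome 3, 89093588 to 89101959, protein coding), farnesyl diphosphate synthase, read 154, 166, 186 and 170.3 FPKM in IL-1β, 29.7, 37.5, 25.3 and 30.0 FPKM in bleomycin and 69.4, 63.7, 54.7 and 70.6 FPKM in vehicle. Vehicle lay between the treatments without overlap (-2.44 ± 0.11, limma, adjusted p = 1.16e-07). Msmo1, a sterol oxidase, was 5.48-fold higher in IL-1β.

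Other metabolic groups differed by less, and several turned with the scaling. Ribosomal protein genes were higher in IL-1β in 51 of 53 cases (median -0.57), in 29 after TPM rescaling, when 2 passed as higher in bleomycin. Rpl13a stood at 4212 ± 427 against 1945 ± 201 FPKM and Rps3 at 2204 ± 145 against 1074 ± 30.2 FPKM. Respiratory chain subunits were higher in IL-1β in 26 of 39 cases (median -0.27, but 0.11 after TPM rescaling and -0.26 relative to all genes there). Cox7b was 1.78-fold higher in IL-1β. Glycolysis genes were higher in IL-1β in 18 of 30 cases and in bleomycin in 5 (median -0.31, but 0.06 after TPM rescaling), among them Ldha, lactate dehydrogenase, at 2521 ± 179.8 against 1432 ± 57.9 FPKM, whose call ended with quantile normalization. Of 28 tested genes of amino acid starvation and protein-folding stress (ATF4 and the unfolded protein response), 14 were higher in IL-1β and 7 in bleomycin (median -0.18, but 0.19 after TPM rescaling). The cystine transporter gene Slc7a11 stood at 5.03 ± 0.447 FPKM in IL-1β, 0.933 ± 0.143 FPKM in bleomycin and 2.34 ± 0.207 FPKM in vehicle. Cth, cystathionine gamma-lyase, was 3.11-fold higher in IL-1β. Ddit3, the stress factor CHOP, was higher in bleomycin (79.6 ± 6.01 against 50.7 ± 6.05 FPKM).

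Lysosomal genes were higher in bleomycin in 22 of 44 tested cases (50%, against 26.1% of all tested genes). Another 11 were higher in IL-1β (25%, against 25.0% of all tested genes) and 11 not called (median 0.14). After TPM rescaling 34 were higher in bleomycin and 4 in IL-1β, and after quantile normalization 23 and 5. Ctsd, the protease cathepsin D, read 1095, 1229, 1154 and 1124 FPKM in bleomycin, 666, 689, 679 and 672 FPKM in IL-1β and 479.6, 504, 489.6 and 447 FPKM in vehicle, a series without overlap (0.76 ± 0.05, limma, adjusted p = 2.72e-06). Ctsf, cathepsin F, was 2.44-fold higher in bleomycin. Gla, alpha-galactosidase, was 2.53-fold higher in IL-1β, and Ctsk, cathepsin K, stood at 158 ± 9.82 against 94.2 ± 4.54 FPKM. Hyaluronan genes bear on the enzyme step given before bleomycin. Of 14 listed, 8 were tested, 3 higher in bleomycin and 2 in IL-1β (1 without bleomycin replicate 3). Has2, the synthase, stood at 6.65, 6.27, 6.60 and 6.96 FPKM in bleomycin, 4.75, 3.57, 3.60 and 3.47 FPKM in IL-1β and 8.41, 10.2, 8.27 and 10.4 FPKM in vehicle, Hyal1, a lysosomal hyaluronidase, at 4.29 ± 0.946 against 1.69 ± 0.219 FPKM, and Tnfaip6, which cross-links hyaluronan, at 6.98 ± 0.383 FPKM in IL-1β against 1.36 ± 0.179 FPKM. The part of the hyaluronidase step in any result was not tested.

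Macrophage, endothelial, erythroid, skeletal muscle and keratinocyte markers were low, whereas the adipocyte, synovial fibroblast, osteoclast and tendon lists summed to higher levels. Of 15 macrophage markers, 4 passed the filter and 10 were under 1 FPKM in all 8 libraries, and the list summed to 18.2 to 19.8 FPKM in bleomycin and 31.2 to 36.7 FPKM in IL-1β, in which Cd14 (15.8 ± 2.67 against 5.48 ± 0.436 FPKM) and Cd68 (7.94 ± 1.31 against 4.52 ± 0.785 FPKM) were called. Of 11 endothelial markers 9, and of 7 erythroid markers all 7, were under 1 FPKM in all 8 libraries, as were 10 of 12 skeletal muscle and 4 of 6 keratinocyte markers. Adipocyte markers summed to 77.0 to 88.1 FPKM in bleomycin and 371 to 410 FPKM in IL-1β. Most of the latter was Fabp4, at 383, 383, 354 and 346 FPKM in IL-1β and 54.8, 57.9, 61.7 and 58.8 FPKM in bleomycin, whereas Adipoq stood at 3.13, 3.36, 5.52 and 4.21 FPKM in bleomycin and Cfd at 1.18, 2.02, 2.98 and 2.84 FPKM, both under 1 FPKM in every IL-1β library. Of 7 tested synovial fibroblast markers 6 were higher in bleomycin, Pdgfra by 1.10, and Pdpn was higher in IL-1β (74.6 ± 12.6 against 42.1 ± 11.4 FPKM), a call lost after TPM rescaling; the list summed to 142 to 191 FPKM in bleomycin and 130 to 159 FPKM in IL-1β. Osteoclast markers summed to 110.2 to 120.4 FPKM in bleomycin and 162 to 189 FPKM in IL-1β, most of it Ctsk. Tendon markers summed to 689 to 734 FPKM in bleomycin and 265 to 280.0 FPKM in IL-1β, most of it Fmod, which cartilage also expresses. The part of such cells in the results was not tested.

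Set beside vehicle, the gap between the treatments had different shapes. The median difference from the same 4 vehicle libraries was -0.17 for bleomycin and -1.22 for IL-1β over the tested cartilage matrix genes. For cholesterol synthesis it was -0.47 and 1.23, for chemokines -0.28 and 2.32, and for mitosis genes -0.77 and -0.33. For interferon-stimulated genes bleomycin stood at 1.43 and IL-1β at 0.15, for p53 targets at 0.50 and 0.36, and for lysosomal genes at 0.79 and 0.65. Over all tested genes the medians were 0.06 for bleomycin and 0.04 for IL-1β. These pairs share their vehicle libraries and are given side by side, with no test between them. The medians include members that passed the filter through 1 treatment alone. These were 10 of 33 interferon-stimulated genes through bleomycin, and 2 of 17 chemokines and 1 of 24 cholesterol synthesis genes through IL-1β. Part of the gaps of these lists is thus set by the filter. FPKM summed to 413564 to 423830 in the vehicle libraries and 521294 to 559190 in the IL-1β libraries. Rescaling to TPM, which was not done for these pairs, would lower IL-1β levels relative to vehicle. The labels do not say when vehicle cells were harvested or whether they received hyaluronidase.

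**Figure D5:**
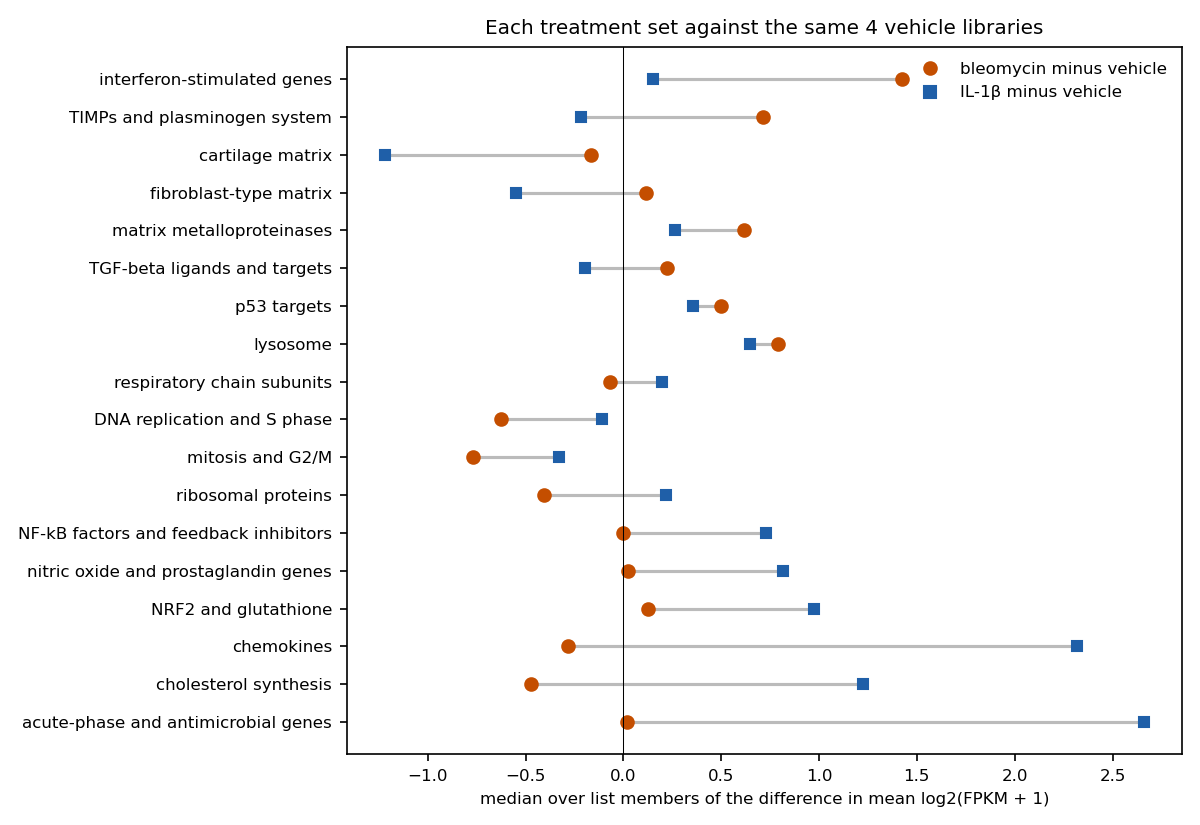
Median over the tested members of 18 gene lists of the difference in mean log2(FPKM + 1) from the same 4 vehicle libraries, for bleomycin (orange circles) and IL-1β (blue squares). Cholesterol and chemokine lists lie on opposite sides of 0, p53 targets and lysosomal genes lie above 0 in both, and mitosis genes lie below 0 in both. The values are without rescaling to TPM and include members that passed the filter through 1 treatment alone.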

How the data were processed

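Total RNA (1 µg per sample, extracted with TRI reagent) was made into TruSeq Stranded mRNA libraries, per the labels' protocols. The submitters' processing notes name Trimmomatic (read trimming), STAR (alignment) and build GRCm38, without versions. The deposited tables hold 1 FPKM value per gene and library, made by the authors with a tool and annotation not given in the sources used here. FPKM values are relative to each library's fragments, so a few very abundant transcripts lower all others. Estimated fragments gave whole numbers within 0.1 for 62.9% to 67.7% of low values, so counts were not recovered and no count test was run. Of 55450 gene IDs, 54312 matched GENCODE M21 with their version and 55104 without it.

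Differences are limma 3.58.1 (R 4.3.3) fits with a mean-variance trend to log2(FPKM + 1) of the 8 libraries, for genes at 1 FPKM or more in at least 4 of them, with Benjamini-Hochberg adjusted p under 0.05. A fold change on this scale understates the change of low genes, and folds written as N-fold are ratios of mean FPKM. Counts of genes that differed at least 2-fold are instead on the log2 scale with its pseudocount. The scripts were tested on simulated data. A single-value comparison used an exact permutation test. Within the bleomycin group and within the IL-1β group no 2 libraries held the same values. At most 0.00831% of genes at 1 FPKM or more in both libraries of a pair had equal values. Every table's sample is given by the labels.

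Named genes are 28 anchors, the 10 largest called differences in each direction, the 3 largest of each list with the largest opposite one, and all members of the IL-1, NF-kB, protease, cartilage matrix and CDK inhibitor lists (274 in all). Members and lists were chosen with earlier results of these data known. Of list symbols with several rows, the row with the highest mean was used. Alternatives changed the filter, pseudocount, scaling, samples in the fit, replicate block, variance trend and 1 library at a time. The doxorubicin libraries were not used in the main comparison. Some genes that this rule names are not reported here.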

Additional observations from a re-analysis of the deposited data

Results flagged for a closer look

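Among the genes named here, 24 of 371 groups of 4 libraries held a library far from the other 3, against about 1 in 20 by chance. Bleomycin replicate 4 was the highest for Adamts5 (16.3 FPKM, the others 13.5 to 13.9), C3 (6.57, the others 5.07 to 5.13) and Chil1 (26.8, the others 17.24 to 17.99). The same library was the lowest for Cd14 (4.83 FPKM, the others 5.63 to 5.77), Cth (8.95, the others 10.1 to 10.4) and Rps3 (1029.7, the others 1086 to 1096), and it listed Mmp25 at 0, the others at 0.0423 to 0.0452. Bleomycin replicate 3 was the highest for Cxcl14 (20.5 FPKM), Gch1 (6.005) and Mmp12 (0.112) and the lowest for Gpx8 (257). Bleomycin replicate 2 was the lowest for H2-T23 (21.4 FPKM, the others 28.1 to 29.4), and replicate 1 for Mmp17 (0.148). Bleomycin replicate 3 was also the lowest for Xrcc3 (1.93 FPKM, the others 2.2 to 2.24). In the IL-1β group, replicate 3 was the highest for Col2a1 (4191 FPKM, the others 3889 to 3914) and the lowest for Gins1 (5.79, the others 8.19 to 8.30), Mmp16 (2.77) and Tab2 (28.6). Replicate 2 was the highest for Cytl1 (4.78 FPKM, the others 3.28 to 3.33), Slurp1 (1.78) and Tnfaip3 (6.13) and the lowest for Timp2 (171). Replicate 1 was the highest for Has2 (4.75 FPKM), and replicate 4 the lowest for Map3k14 (3.01).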

How the results depend on the processing

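Of 179 tested genes with values in the text, 152 kept their direction and their side of the threshold in each of the 18 alternative fits that gave them a value; at a mean FPKM of at least 5 only 148 had one. The called genes Adamts1, Ccne1, Cdkn2b, Il18, Il1r1, Ldha, Nlrc5, Pdpn, Socs3, Tab1, Tab2 and Tpm1 lost their call in at least 1 of them. After TPM rescaling 7144 genes were called higher in bleomycin and 1172 higher in IL-1β, and 1513 differed at least 2-fold (1185 higher in bleomycin). The shift toward bleomycin follows from the division by larger FPKM sums in IL-1β. The rescaling also raises all values, so the added pseudocount of 1 weighs less. Its part in the 2-fold counts was not tested. With the same rescaling the differences of Adamts1 (0.12), Cdkn2b (0.11), Cdkn2c (0.30), Epyc (0.22), Irak1 (0.37), Map3k7 (0.29) and Tpm1 (0.12) turned, as did, among 26 list medians refitted, those of the antioxidant enzyme (0.19), ATF4 (0.19), BCL2 (0.26), DNA repair (0.18), glycolysis (0.058), hypertrophy (0.35), IL-1 signalling (0.37), lamina (0.18) and respiratory chain (0.11) lists. The adipocyte (0.28), tendon (0.36) and osteoclast (0.0059) marker medians turned too. The medians near 0 of the IL-1 signalling and hypertrophy lists also turned after quantile normalization (0.0027 and 0.010) and ranged from -0.073 to 0.040 and from -0.058 to 0.021 with 1 library left out, and that of hypertrophy was 0.12 at a mean FPKM of at least 5. At a mean FPKM of at least 5, where fewer genes were tested, 535 genes differed at least 2-fold, 252 higher in bleomycin and 283 in IL-1β. A pseudocount of 0.01 gave 1335 such genes (713 higher in bleomycin), and 0.1 gave 672 higher in bleomycin; a smaller pseudocount widens the difference of low genes. Leaving out 1 library at a time gave 5800 to 6156 calls and 843 to 889 at least 2-fold.

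Same-numbered libraries were not paired by the labels, and their deviations correlated at -0.02 to 0.16 over 4 pairs, 1 of them over 0.1, with 4 of 8 libraries closest to their own number. With the replicate number as a block, 6277 genes were called (3183 higher in bleomycin), 853 of them at least 2-fold, and none of the 179 genes changed its call. Depth limits genes near 1 FPKM.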
